A study of Mus musculus with 85 samples.

Results

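The 41 genes described here act in S phase, the part of the cell cycle in which DNA is copied. They were taken as a named list, each represented by its brightest probe set, which is the one with the highest mean over the 5 cell populations weighted equally. All 41 were on the array and counted as measured, meaning above a log2 value of 5 (the background threshold) in at least 3 cells. In all, 10694 of 18193 genes with a probe set of 1 symbol were measured. The study profiled 85 single mouse cells on Affymetrix arrays along the route by which the wall of the embryonic aorta gives rise to blood stem cells.

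Endothelial cells (EC, 7 cells) and hemogenic endothelium (HEC, 7 cells), vessel-wall cells that produce blood, came from the caudal part of E10.5 embryos of the genotype eR1-GFP, in which a Runx1 enhancer drives GFP. Both were CD31+, Ter119-, CD45- and CD41-, and differed by the absence or presence of GFP. Hematopoietic cluster cells (HCC, plotted as cluster), the blood cells that bud from the vessel wall, were c-Kit+, CD31+, CD45+ and SSEA1- and came from wild type embryos, from the caudal part at E10.5 (28 cells) and from the aorta-gonad-mesonephros region at E12.5 (16 cells). From wild type fetal liver at E14.5 came hematopoietic stem cells (HSC), gated as CD150+, CD48-, c-Kit+, Sca-1+, Lin- and Mac-1+ (27 arrays). All tissues were dissociated with collagenase. The eR1-GFP populations and the wild type populations differ in genotype as well as in cell type. Between the blood populations stage and tissue change together, and from HCC to HSC the sorting gate changes too. These cannot be told apart.

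DNA is copied from origins at which a ring of MCM subunits is loaded in G1 by ORC, Cdc6 and Cdt1, and switched on in S phase by Cdc45 and the GINS complex. Polymerases then extend both strands behind the helicase, held by the PCNA clamp, while ribonucleotide reductase supplies deoxynucleotides and histone chaperones rebuild chromatin. Many of these genes are known targets of E2F factors, which RB family proteins restrain until cyclin-dependent kinases release them. HSC of the fetal liver are known to divide more often than those of adult marrow, and blood cell clusters of the aorta to hold dividing cells.

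Each array carried 1 cell, and no label ties cells to an animal, litter or sort, so a population is treated as 1 sample, which allows no test. Errors are SDs over single cells. A gene is called higher or lower where the mean log2 value of 2 populations differs by 1 or more, and the counts of each comparison are set beside the share of all measured genes that reach the same size, given as higher and lower in that order where only percentages follow. Arrays of HSC cells 20 and 21 were nearly identical (r = 0.991, with 0.859 for the next closest pair of all) and were averaged, which leaves 84 cells, 26 of them HSC. On average 5905 probe sets were above background in EC, 7712 in HEC, 9943 in E10.5 HCC, 7820 in E12.5 HCC and 6552 in HSC. The summed level of 10 endothelial markers, as a mean log2 value, ranged from 11.53 to 13.36 over HEC, and that of 10 blood markers from 9.84 to 14.06 over E10.5 HCC. There were 6 cells that went against their label: EC cell 3 (endothelial mean 3.52, germ cell markers 11.46), E12.5 HCC cells 3, 6 and 10 (macrophage markers 12.24, 13.52 and 12.09) and HSC cells 5 and 7 (endothelial markers 10.64 and 11.11, blood markers 2.75 and 3.30). Among members, 37 of 41 were above background in EC cell 3, 7, 38 and 21 in those E12.5 HCC, and 9 and 32 in those HSC. Their part in the results was measured by leaving them out. The mean of 3 measured erythroid markers ran from 2.27 to 11.04 over E10.5 HCC (median 2.32). Over E12.5 HCC it ran from 2.31 to 8.65 (median 3.04), and over HSC from 2.31 to 2.54. No cell was set aside for these markers, and their part in the results was not tested. E10.5 HCC cell 17 had endothelial markers at 9.70 beside blood markers at 9.84. HEC cell 5 had germ cell markers at 7.07 beside endothelial markers at 12.13. Both cells were kept in the main comparisons.

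Promoters of several members are shown because the members vary together across cells and many are known E2F targets. RefSeq promoters of assembly GRCm38.p6 (250 bases before to 50 after the start site) were matched by symbol for 31 of the 41 members, 4 of them with 2 promoters each. The E2F motif was searched on both strands as TTTCCCGC, TTTCGCGC, TTTGCCGC or TTTGGCGC. Of the 31 members 13 held it (41.9%), against 2.60% of all 27025 genes in the promoter table (2.26% of 32851 promoters). By role, it was in 5 of 7 genes of the helicase and licensing group, 4 of 8 of the chromatin and histone group, 2 of 6 of the polymerase group and 2 of 5 of the fork and repair group. None of 4 nucleotide supply genes held it. Mcm6 held 3 matches, and Mcm3, Mcm5 and Mcm7 held 2 each.

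The stretches below are the 250 bases before the start site, 5′ to 3′ on the gene's strand, with E2F motifs and CCAAT boxes (CCAAT or its complement ATTGG) in capitals. Mcm5 and Mcm6 show the motif in overlapping copies on opposite strands, and Cdc6 and Hells show a single copy.
Mcm5, chr8:75109259-75109508, strand plus: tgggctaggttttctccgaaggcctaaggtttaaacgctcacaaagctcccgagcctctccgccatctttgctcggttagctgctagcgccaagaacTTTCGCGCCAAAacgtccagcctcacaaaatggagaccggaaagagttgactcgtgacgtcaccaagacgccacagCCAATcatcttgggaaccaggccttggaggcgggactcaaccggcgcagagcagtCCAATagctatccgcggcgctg
Mcm6, chr1:128359706-128359955, strand minus: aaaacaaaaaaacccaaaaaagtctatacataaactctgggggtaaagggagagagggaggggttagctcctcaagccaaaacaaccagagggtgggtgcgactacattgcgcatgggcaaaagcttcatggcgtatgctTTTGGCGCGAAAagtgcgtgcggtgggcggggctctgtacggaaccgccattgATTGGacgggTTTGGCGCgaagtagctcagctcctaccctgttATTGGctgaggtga
Cdc6, chr11:98907901-98908150, strand plus: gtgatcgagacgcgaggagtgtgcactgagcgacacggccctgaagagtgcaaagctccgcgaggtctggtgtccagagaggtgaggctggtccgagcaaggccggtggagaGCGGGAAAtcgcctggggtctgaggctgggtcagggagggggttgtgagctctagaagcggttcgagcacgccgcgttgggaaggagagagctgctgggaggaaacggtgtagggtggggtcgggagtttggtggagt
Hells, chr19:38930740-38930989, strand plus: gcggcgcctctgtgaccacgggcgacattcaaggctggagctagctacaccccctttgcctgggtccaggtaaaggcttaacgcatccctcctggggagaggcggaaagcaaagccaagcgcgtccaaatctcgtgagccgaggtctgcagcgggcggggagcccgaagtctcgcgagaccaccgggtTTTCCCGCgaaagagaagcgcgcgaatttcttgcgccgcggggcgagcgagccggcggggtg
Rrm2 and Rad51ap1, the members furthest below E10.5 HCC in HSC, held CCAAT boxes and none of the 4 E2F spellings in their 300-base window, and are shown for contrast.
Rrm2, chr12:24708004-24708253, strand plus: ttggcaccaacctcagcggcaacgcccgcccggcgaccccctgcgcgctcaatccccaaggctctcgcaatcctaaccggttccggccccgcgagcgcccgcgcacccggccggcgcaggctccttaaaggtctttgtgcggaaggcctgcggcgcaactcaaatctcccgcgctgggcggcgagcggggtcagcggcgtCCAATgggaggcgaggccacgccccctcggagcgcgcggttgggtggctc
Rad51ap1, chr6:126939588-126939837, strand minus: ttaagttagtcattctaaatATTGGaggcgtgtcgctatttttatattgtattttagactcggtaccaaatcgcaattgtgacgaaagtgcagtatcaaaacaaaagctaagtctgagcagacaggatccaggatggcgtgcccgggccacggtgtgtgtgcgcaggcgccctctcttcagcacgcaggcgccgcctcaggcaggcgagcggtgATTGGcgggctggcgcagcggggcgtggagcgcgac

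In Mcm6 the E2F matches began 110, 106 and 47 bases before the start site, and in Mcm5 153 and 149 bases before it. Mcm7 had 1 match 165 bases before and 1 beginning 17 bases after the start site, and both matches of Mcm3 lay after it. Single matches were found in Cdc6, Hells, Uhrf1, Cdca7, Casp8ap2, Dtl, Clspn, Pola1 and Pold3. CCAAT boxes were in 22 of the 31 members (71.0%) against 41.1% of all genes, and 9 members held both motifs. The CCAAT box was also in 82.6% of the G2 and mitosis genes and 50% of the other replication genes with a promoter. The GC box (GGGCGG) was in 21 members (67.7% against 38.2% of all genes). Both lists held the GC box more often than the members did, at 82.6% of G2 and mitosis genes and 84.8% of other replication genes. The CHR element of mitotic genes (TTTGAA or TTCGAA) was in 7 members (22.6% against 21.7% of all genes), and in 17 of 23 G2 and mitosis genes, of which 1 held the E2F motif. Of 46 other replication genes with a promoter, 15 held the E2F motif. A match describes the letters of the window and shows no binding.

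E10.5 HCC held the fullest set of S-phase transcripts. The number of members above background in a cell was 26 at the lowest, 37 at the median and 40 at the highest over the 28 E10.5 HCC. It was 15, 22 and 37 in EC, 12, 24 and 36 in HEC, 4, 26.5 and 39 in E12.5 HCC and 7, 21 and 38 in HSC. The ranges of all 5 populations overlap, and E12.5 HCC and HSC each held both nearly empty and nearly complete cells. All 41 members had their highest mean in E10.5 HCC, as did 50.4% of all measured genes. The lowest mean fell in HSC for 20 members, in HEC for 10, in EC for 7 and in E12.5 HCC for 4. Over all measured genes the shares were 22.2, 20.9, 39.1 and 11.4% in the same order.

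**Figure D1:**
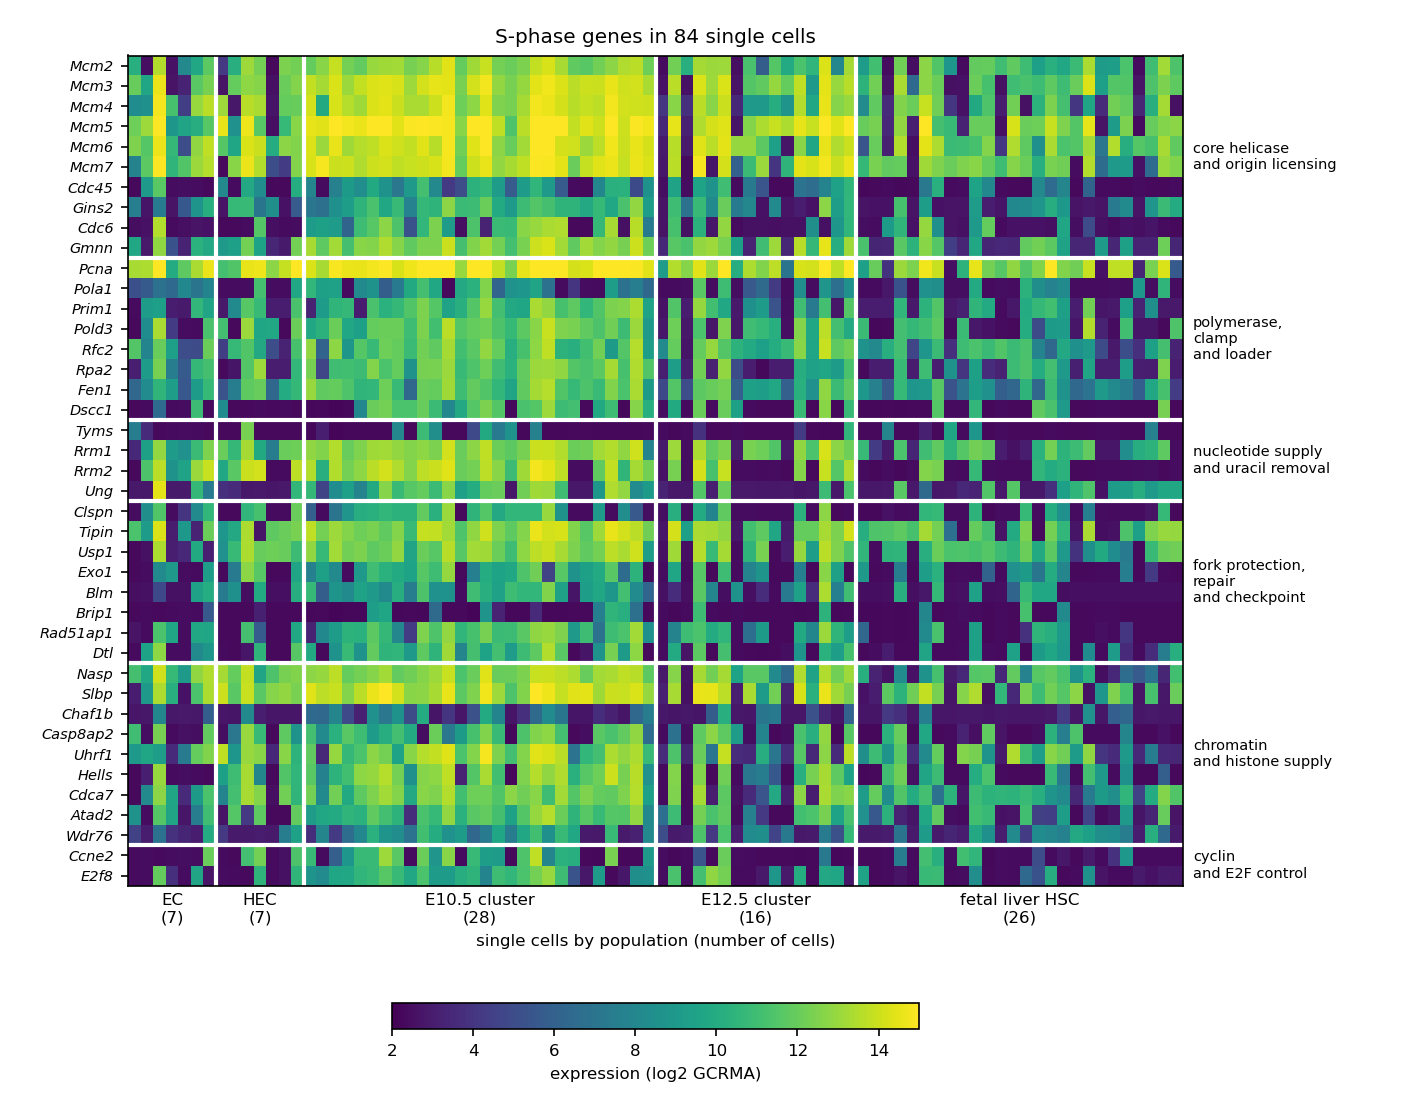
Log2 expression of the 41 S-phase genes (rows, by role) in 84 single cells (columns, by population, in label order). The 28 E10.5 HCC columns are bright in nearly all rows, while E12.5 HCC and fetal liver HSC columns alternate between bright and dark cells, and Tyms and Brip1 are dark in most columns.

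In the blood populations, cells with more transcripts detected overall also held more members, and this stands beside every difference between populations. Across cells, members above background correlated with probe sets above background at r = 0.66 over the 28 E10.5 HCC (rho = 0.63), 0.93 over the 16 E12.5 HCC (rho = 0.91) and 0.57 over the 26 HSC (rho = 0.61). Over the 7 HEC it was 0.17, and over the 7 EC 0.70. Both numbers come from the same array, so they share its amplification and hybridisation. At the median of cells, 90.2% of members and 55.7% of all measured genes were above background in E10.5 HCC, against 51.2 and 37.4% in HSC. A transcript that was absent and one that was lost in amplification cannot be told apart in a single cell.

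**Figure D2:**
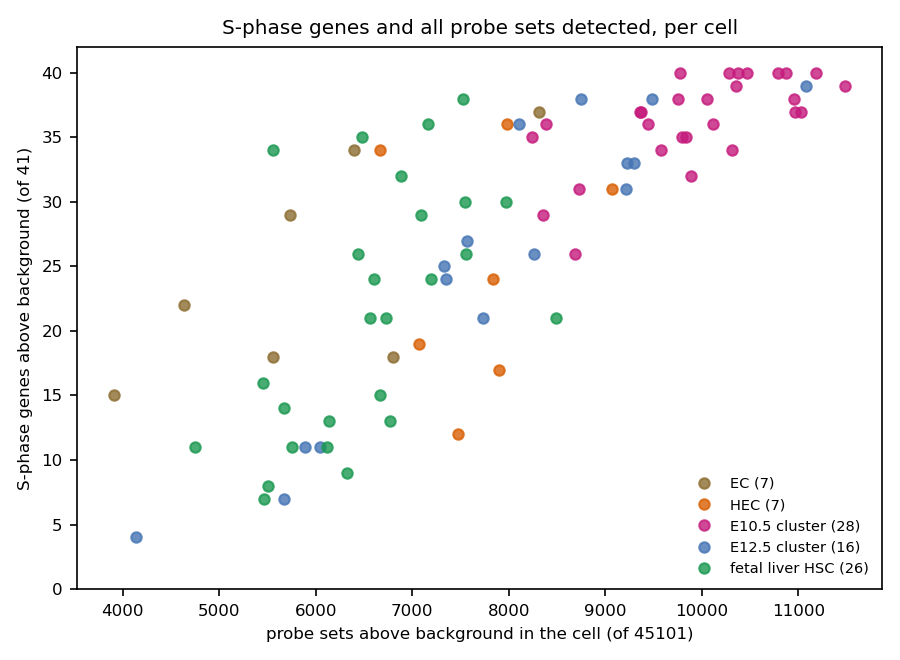
S-phase genes above background (of 41) against all probe sets above background (of 45101) in each of 84 cells, coloured by population. E10.5 HCC lie at the upper right with 26 to 40 genes, and E12.5 HCC spread along the whole diagonal from 4 to 39.

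The MCM helicase subunits Mcm2 to Mcm7 were above background together in 28 of 28 E10.5 HCC, 10 of 16 E12.5 HCC, 16 of 26 HSC, 4 of 7 EC and 3 of 7 HEC. Without the cells that went against their label, it was 9 of 13 E12.5 HCC, 15 of 24 HSC and 3 of 6 EC. Mcm2 had a lowest, median and highest log2 value of 11.61, 12.71 and 14.43 in E10.5 HCC, 2.40, 11.30 and 14.30 in E12.5 HCC and 2.36, 10.99 and 13.36 in HSC. In EC and HEC its medians were 9.79 and 12.25, within ranges of 2.56 to 13.52 and 2.33 to 13.08. Every E10.5 HCC expressed it in a narrow band (SD 0.80), while all other populations reached down to background (SD 3.38 to 4.41).

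Mcm3 showed the same shape, with 12.32, 14.08 and 14.77 in E10.5 HCC, 2.65, 12.97 and 14.46 in E12.5 HCC and 2.56, 11.31 and 14.33 in HSC. In EC it ran from 2.70 over a median of 11.69 to 14.60, and in HEC from 2.57 over 12.03 to 12.81. Mcm4 had values of 9.91, 13.996 and 14.78 in E10.5 HCC, 3.49, 11.37 and 14.56 in E12.5 HCC and 2.58, 10.27 and 13.91 in HSC. The ranges of both genes overlap between all populations, and Mcm4 was above background in 17 of 26 HSC, the fewest of the 6 subunits there. In EC and HEC, Mcm4 medians were 11.24 and 11.98, with lowest values of 4.398 and 2.74 and highest of 14.78 and 13.60.

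Mcm5 ran from 11.44 over a median of 14.79 to 15.78 in E10.5 HCC, from 2.72 over 13.92 to 15.26 in E12.5 HCC and from 2.38 over 11.9998 to 15.14 in HSC. In EC it was above background in 7 of 7 cells (8.87 to 15.40, median 11.63) and in HEC in 6 of 7 (2.56 to 14.67, median 11.64). The E12.5 HCC median lay near that of E10.5 HCC, and 3 of its 16 cells were at background. Mcm6 was the subunit above background in all EC and HEC, with 9.69, 12.54 and 14.28 in HEC and 5.07, 12.50 and 14.64 in EC. Its values were 11.98, 14.07 and 15.02 in E10.5 HCC, 2.71, 12.93 and 14.57 in E12.5 HCC and 2.56, 11.55 and 14.45 in HSC.

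Mcm7 ran from 11.94 over 14.02 to 14.93 in E10.5 HCC, from 2.36 over 13.34 to 14.80 in E12.5 HCC and from 2.43 over 11.97 to 13.48 in HSC. It was above background in 7 of 7 EC (7.81 to 14.93, median 11.72) but in 5 of 7 HEC (2.34 to 14.63, median 12.59). In HSC it was in 23 of 26 cells and in E12.5 HCC in 12 of 16. Their means, 10.38 ± 3.39 and 10.43 ± 4.99 (SD), differed by less than the spread over cells.

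**Figure D3:**
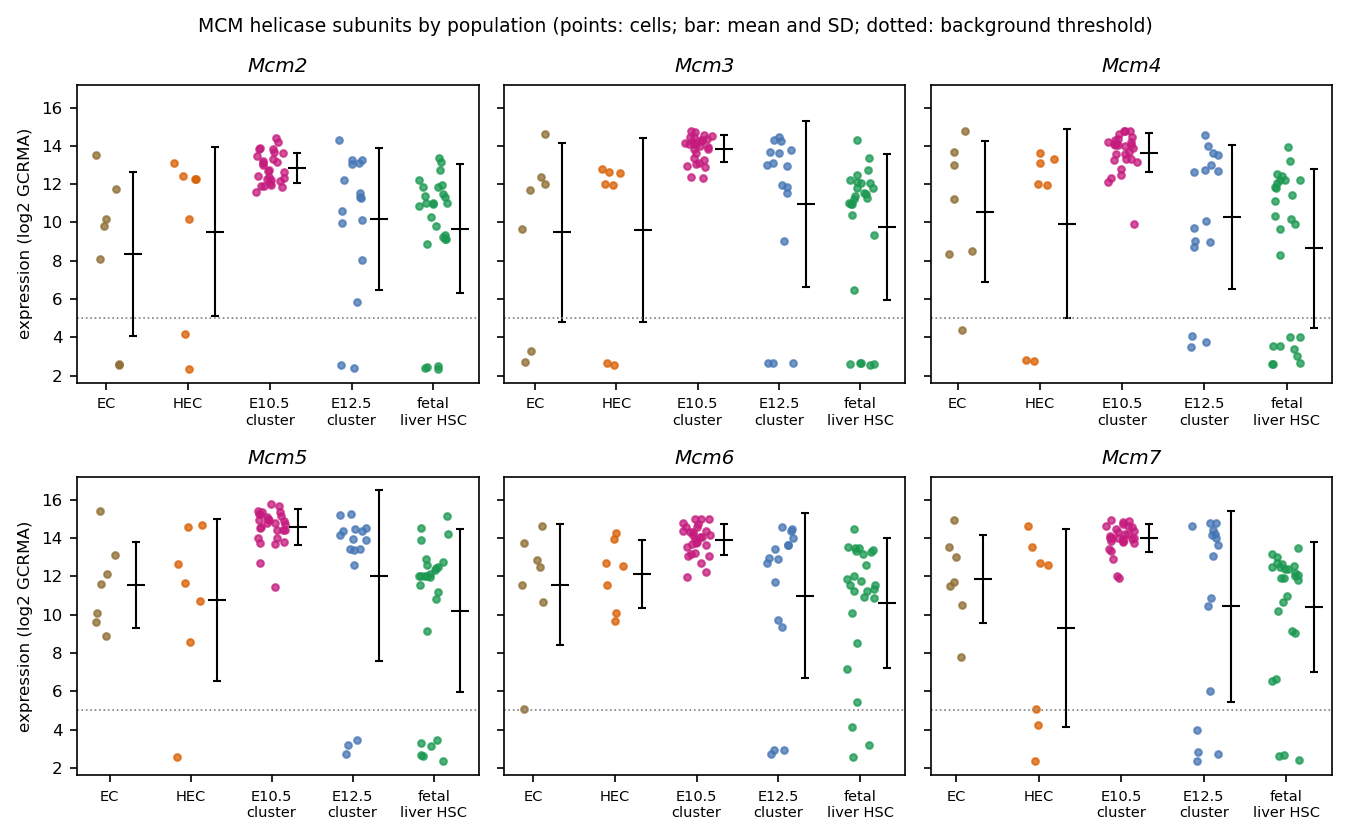
Log2 expression of Mcm2 to Mcm7 in single cells of 5 populations, with the mean and SD over cells beside the points and the background threshold of 5 as a dotted line. All E10.5 HCC lie above 9 for each subunit, while each other population holds cells at background for at least 3 of the 6 subunits.

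The rest of the licensing and helicase group was more uneven. Cdc45, a helicase cofactor, was above background in 23 of 28 E10.5 HCC (mean 7.70 ± 2.63, SD), 11 of 16 E12.5 HCC, 8 of 26 HSC, 2 of 7 EC and 4 of 7 HEC. Gins2, a GINS subunit, was in 28 of 28 E10.5 HCC (10.24 ± 1.47) and in 13 of 26 HSC. Geminin (Gmnn), which binds Cdt1 and blocks a second round of licensing, was in 28 of 28 E10.5 HCC, with values from 11.12 over a median of 12.60 to 14.24. Gmnn ran from 3.29 over 11.44 to 14.50 in E12.5 HCC and from 3.28 over 6.79 to 12.71 in HSC, 13 of which were above background. Its HSC range overlaps that of E10.5 HCC, but its HSC median lies below their lowest value.

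Cdc6, the loader of the MCM ring, was detected mainly in cluster cells at E10.5. It was above background in 23 of 28 E10.5 HCC (2.31 to 13.60, median 10.71), but in 1 of 7 EC and 1 of 7 HEC, where the medians were 2.65 and 2.44. The EC in question was cell 3, with 13.49, and the HEC cell 4, with 11.58. In E12.5 HCC, 6 of 16 and in HSC 7 of 26 were above background, with medians of 2.65 and 2.64.

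Among the polymerase, clamp and loader genes, the clamp Pcna and the nuclease Fen1 were widely detected. Pcna was above background in every EC, HEC, E10.5 and E12.5 HCC and in 22 of 26 HSC, with means of 13.10 ± 1.75, 13.34 ± 1.57, 14.59 ± 0.74, 12.94 ± 2.30 and 11.07 ± 3.98 (SD) in that order. Fen1, which trims the flaps of Okazaki fragments, was in 25 of 26 HSC, more than any other member, in 15 of 16 E12.5 HCC and in every E10.5 HCC, EC and HEC. Rfc2, a subunit of the clamp loader, was in 20 of 26 HSC, 15 of 16 E12.5 HCC, 28 of 28 E10.5 HCC, 5 of 7 HEC and 7 of 7 EC. Pcna, Fen1 and Rfc2 were thus each detected in most cells of every population.

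Rpa2, which coats single-stranded DNA, ran from 4.69 over 11.61 to 13.45 in E10.5 HCC, from 2.30 over 7.08 to 12.90 in E12.5 HCC and from 2.33 over 3.83 to 12.51 in HSC. It was in 6 of 7 EC (3.07 to 12.32, median 9.13) and 3 of 7 HEC (2.34 to 13.09, median 3.05). Pola1, the catalytic subunit of the priming polymerase, was in 7 of 7 EC (5.19 to 8.06, median 6.88) and 2 of 7 HEC (2.41 to 11.16, median 2.44). The EC values of Pola1 lie close above the threshold and within the HEC range. It was in 22 of 28 E10.5 HCC, 8 of 16 E12.5 HCC and 10 of 26 HSC.

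The primase subunit Prim1 was in 26 of 28 E10.5 HCC, 11 of 16 E12.5 HCC, 12 of 26 HSC and 4 of 7 cells of both EC and HEC. Pold3, an accessory subunit of polymerase delta, was in 28 of 28 E10.5 HCC, 11 of 16 E12.5 HCC and 12 of 26 HSC. In EC it ran from 2.35 over 4.26 to 13.33 and in HEC from 2.32 over 9.72 to 13.06, so the ranges overlap nearly fully. Dscc1, part of the alternative clamp loader used in sister chromatid cohesion, ran from 2.25 over 10.94 to 13.08 in E10.5 HCC (21 of 28 above background), against 1 of 7 HEC, 2 of 7 EC, 7 of 16 E12.5 HCC and 6 of 26 HSC. It was at background in 7 of the 28 E10.5 HCC, where Pold3 was in every cell.

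The nucleotide supply genes followed separate courses. Rrm2, the small subunit of ribonucleotide reductase whose level is known to follow S phase, ran from 2.42 over 13.20 to 14.76 in E10.5 HCC (26 of 28 above background), from 2.31 over 6.94 to 14.17 in E12.5 HCC (8 of 16) and from 2.30 over 2.41 to 12.57 in HSC (6 of 26). In EC it was in 6 of 7 cells (2.35 to 13.92, median 11.38) and in HEC in 5 of 7 (2.40 to 14.10, median 11.66). Its large subunit Rrm1 was in 28 of 28 E10.5 HCC, 12 of 16 E12.5 HCC and in 17 of 26 HSC. In HSC, Rrm2 was thus at background in most cells and Rrm1 in 9 of 26.

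Ung, the glycosylase that removes uracil from DNA, ran from 2.80 over 10.73 to 13.47 in E10.5 HCC (24 of 28), from 2.76 over 2.87 to 12.04 in E12.5 HCC (4 of 16) and from 2.63 over 5.15 to 11.68 in HSC (13 of 26). In EC it was in 3 of 7 cells (2.86 to 14.48, median 2.94) and in HEC in 1 of 7 (2.80 to 10.59, median 2.90). Ung was thus detected in a larger share of HSC than of E12.5 HCC, unlike Rrm2. Tyms, thymidylate synthase, is represented by a dim probe set that exceeded background in 7 of 28 E10.5 HCC, 1 of 16 E12.5 HCC, 4 of 26 HSC and 1 cell each of EC and HEC. Of its 4 probe sets 2 were measured, and they differed in sign for HEC minus EC (0.49 and -0.96), so no direction is read from Tyms there.

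Among fork protection, repair and checkpoint genes, Usp1 encodes the deubiquitinase of PCNA. On its brightest probe set it was in 7 of 7 HEC (8.58 to 13.41, median 11.96) and 2 of 7 EC (2.35 to 13.40, median 3.10). In E10.5 HCC it ran from 9.27 over 12.43 to 14.05, in E12.5 HCC from 2.31 over 11.10 to 13.68 and in HSC from 2.35 over 10.50 to 12.20, with 28 of 28, 11 of 16 and 22 of 26 above background. The EC and HEC ranges overlap through the EC that expressed it, and 2 other measured probe sets of Usp1 differed between HEC and EC by -0.03 and 0.25. Tipin, a partner of Timeless at the fork, was in 28 of 28 E10.5 HCC, 13 of 16 E12.5 HCC and 20 of 26 HSC.

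Rad51ap1, a DNA repair protein, ran from 3.24 over 10.93 to 13.20 in E10.5 HCC (26 of 28), from 2.31 over 9.17 to 13.02 in E12.5 HCC (12 of 16) and from 2.30 over 2.36 to 11.25 in HSC (7 of 26). In EC it was in 4 of 7 cells (2.39 to 11.34, median 9.62) and in HEC in 3 of 7 (2.32 to 11.16, median 2.34). The HSC median is at background, while both cluster medians are above it. Dtl, the receptor that marks Cdt1 for destruction, had medians of 8.16 in EC (2.36 to 12.77) and 2.40 in HEC (2.32 to 11.65), and was in 24 of 28 E10.5 HCC, 7 of 16 E12.5 HCC and 10 of 26 HSC. Clspn, the claspin adaptor of the Chk1 kinase, was in 22 of 28 E10.5 HCC, 6 of 16 E12.5 HCC and 8 of 26 HSC.

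The exonuclease Exo1 and the helicase Blm were in 24 and 26 of 28 E10.5 HCC, 8 and 8 of 16 E12.5 HCC and 11 and 7 of 26 HSC. Brip1, a helicase that binds Brca1, was at background in most cells of every population, with 8 of 28 E10.5 HCC, 2 of 16 E12.5 HCC, 3 of 26 HSC, 1 of 7 EC and 0 of 7 HEC above it. With 7 cells, 0 of 7 allows a share of up to 40.96% (exact Clopper-Pearson 95% interval, which covers counting error over cells only).

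Of the chromatin and histone supply genes, Slbp, which binds the stem-loop of histone mRNA, was in 7 of 7 HEC in a narrow band (11.66 to 14.02, median 12.63) and in 5 of 7 EC (2.65 to 13.42, median 10.14). It was in 28 of 28 E10.5 HCC, 12 of 16 E12.5 HCC and 18 of 26 HSC. Hells, a chromatin remodeller, was in 6 of 7 HEC (2.33 to 13.31, median 10.57) and 1 of 7 EC (2.34 to 13.01, median 2.38), the exception being EC cell 3. Without that cell, Hells was at background in every EC.

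Hells ran from 2.27 over 12.31 to 14.02 in E10.5 HCC, from 2.31 over 8.52 to 13.32 in E12.5 HCC and from 2.30 over 2.48 to 12.16 in HSC (12 of 26). Its partner Cdca7 followed another course, with 28 of 28 E10.5 HCC (8.24 to 13.55, median 12.20), 9 of 16 E12.5 HCC (2.36 to 13.32, median 7.62) and 23 of 26 HSC (2.72 to 12.57, median 10.08). Cdca7 was thus detected in a larger share of HSC than of E12.5 HCC, the reverse of Hells. In EC and HEC it was in 5 and 6 of 7 cells.

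Nasp, a histone H3-H4 chaperone, was in all EC and HEC (means 11.59 ± 1.91 and 12.12 ± 1.38, SD) and ran from 11.31 over 12.84 to 14.36 in E10.5 HCC, from 2.64 over 11.95 to 13.44 in E12.5 HCC and from 2.50 over 8.01 to 11.88 in HSC (17 of 26). Its HSC median lies below the lowest E10.5 HCC. Casp8ap2, a processing factor of histone transcripts, ran from 2.27 over 11.03 to 12.82 in E10.5 HCC (24 of 28), from 2.28 over 8.51 to 12.90 in E12.5 HCC (10 of 16) and from 2.30 over 2.42 to 11.99 in HSC (8 of 26).

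Uhrf1, which brings the maintenance DNA methyltransferase to copied DNA, ran from 3.48 over 12.59 to 14.83 in E10.5 HCC (27 of 28), from 3.35 over 7.10 to 13.84 in E12.5 HCC (9 of 16) and from 2.36 over 8.89 to 13.43 in HSC (18 of 26). In EC and HEC it was in 6 of 7 cells each. Atad2, a bromodomain ATPase, was in 27 of 28 E10.5 HCC, 11 of 16 E12.5 HCC and 11 of 26 HSC. Wdr76, a WD-repeat protein, was in 22 of 28 E10.5 HCC, 9 of 16 E12.5 HCC and 15 of 26 HSC, and Chaf1b, a subunit of the CAF-1 histone chaperone, in 15, 6 and 4 of the same cells. The mean of Chaf1b in E10.5 HCC was 5.64 ± 2.40 (SD), close above background.

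Ccne2, the cyclin E2 partner of Cdk2, ran from 2.29 over 9.22 to 13.73 in E10.5 HCC (20 of 28) and from 2.29 over 2.35 to 12.04 in E12.5 HCC (3 of 16), and was in 7 of 26 HSC. In EC it was in 1 of 7 cells (2.35 to 12.03, median 2.42) and in HEC in 3 of 7 (2.32 to 12.30, median 2.61). E2f8, a repressor of the E2F family, was in 25 of 28 E10.5 HCC, 8 of 16 E12.5 HCC, 8 of 26 HSC and 2 of 7 cells of both EC and HEC. Both genes were thus mainly cluster genes at E10.5.

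HEC and EC, which differ by the activity of the Runx1 enhancer reporter, differed in S-phase genes in both directions, for several genes on 1 probe set only. On the brightest probe sets, Usp1 was higher in HEC by 5.98 on the log2 scale, Hells by 5.42, Slbp by 3.73, Ccne2 by 2.57 and Pold3 by 2.28, while Mcm7 was lower (-2.56), as were Ung (-2.09), Pola1 (-2.02), Rpa2 (-1.89) and Dtl (-1.76). In all, 14 of 41 members were higher (45.9% of all measured genes) and 6 lower (7.36%), with a median difference of 0.46 against 0.82 for all genes. No member had ranges that failed to overlap, against 0.608% of all genes. The number of members above background had the same mean in both, 24.7 (SD 8.64 in EC and 9.20 in HEC).

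Other measured probe sets gave some of these HEC minus EC differences and not others. They gave -0.03 and 0.25 for Usp1, -0.09 for Slbp, 0.65, -0.17 and -1.78 for Mcm7 and -0.05, 0.93 and 0.18 for Dtl, so no direction is read from these 4 genes. For Hells they gave 1.28 and 1.03, for Pold3 1.78 and 0.06 and for Rpa2 -1.74, each with the sign of the brightest probe set. No other probe set of Ccne2, Ung or Pola1 was measured. With the mean over all probe sets of each gene, the median of the members was -0.02 against 0.49 for all genes, with 12 higher and 4 lower (33.9 and 4%).

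Of the 20 members past this size in HEC minus EC, 8 (Usp1, Hells, Slbp, Ccne2, Pold3, Mcm7, Pola1 and Rpa2) remained so on the brightest probe set whichever single cell was left out. Ung (-0.73), Dtl (-0.74) and Rad51ap1 (-0.95) were under 1 in size without EC cell 3. The counts rested on few cells: 9 were higher without HEC cell 3 or EC cell 4, and 12 or 13 were lower without HEC cell 3, 4 or 7 or EC cell 5. Shares of all genes were not computed for these counts. Without EC cell 3, 17 were higher and 3 lower (49.5 and 6.28% of all genes). With arrays brought to equal median signal, which moved the median of all genes from 0.82 to -0.15, 5 were higher and 18 lower (26.6 and 30.7%), and with quantile normalization 7 and 17 (25.5 and 21.6%), so the direction of the set depends on the scaling. Over cells, the median of Mcm7 was higher in HEC by 0.87.

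Cluster cells at E10.5 expressed almost the whole set above HEC. The largest differences were those of Dscc1 (5.70), Ung (5.62), Cdc6 (5.62), Rad51ap1 (5.19) and Rpa2 (4.89). Of the 41 members 37 were higher in E10.5 HCC (43.1% of all genes) and 0 lower (15.7%), and the median difference was 2.76 against 0.71 for all genes. The 10 helicase and licensing genes and the 8 polymerase genes were all among them, with medians of 3.76 and 3.16. Usp1 (0.995), Slbp (0.91), Nasp (0.73) and Tyms (0.26) did not reach a size of 1 on the brightest probe set, and the first 3 of these were in 7 of 7 HEC on it. Other probe sets gave 0.22 and 2.98 for Usp1, 3.15 for Slbp and -1.04 and 0.21 for Nasp. With the mean over probe sets, 33 members were higher (34.6% of all genes), with a median of 1.80 against 0.51.

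No range failed to overlap between E10.5 HCC and HEC (0.795% of all genes). Of the 37, 31 remained past 1 whichever single cell was left out, and Casp8ap2, Cdc45, Cdca7, Hells, Pcna and Uhrf1 did not. Without HEC cell 5, Uhrf1 was at 0.09, Cdca7 at 0.61, Hells at 0.70 and Casp8ap2 at 0.56, and without HEC cell 1 Pcna was at 0.88. E10.5 HCC had more probe sets above background than HEC. Among the 8 cluster cells and 6 HEC with 7000 to 9500 probe sets above background, a window chosen after the data were seen, 31 members were higher and 1 lower (29.2 and 24.6%), with a median of 2.47 against 0.05 for all genes.

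**Figure D4:**
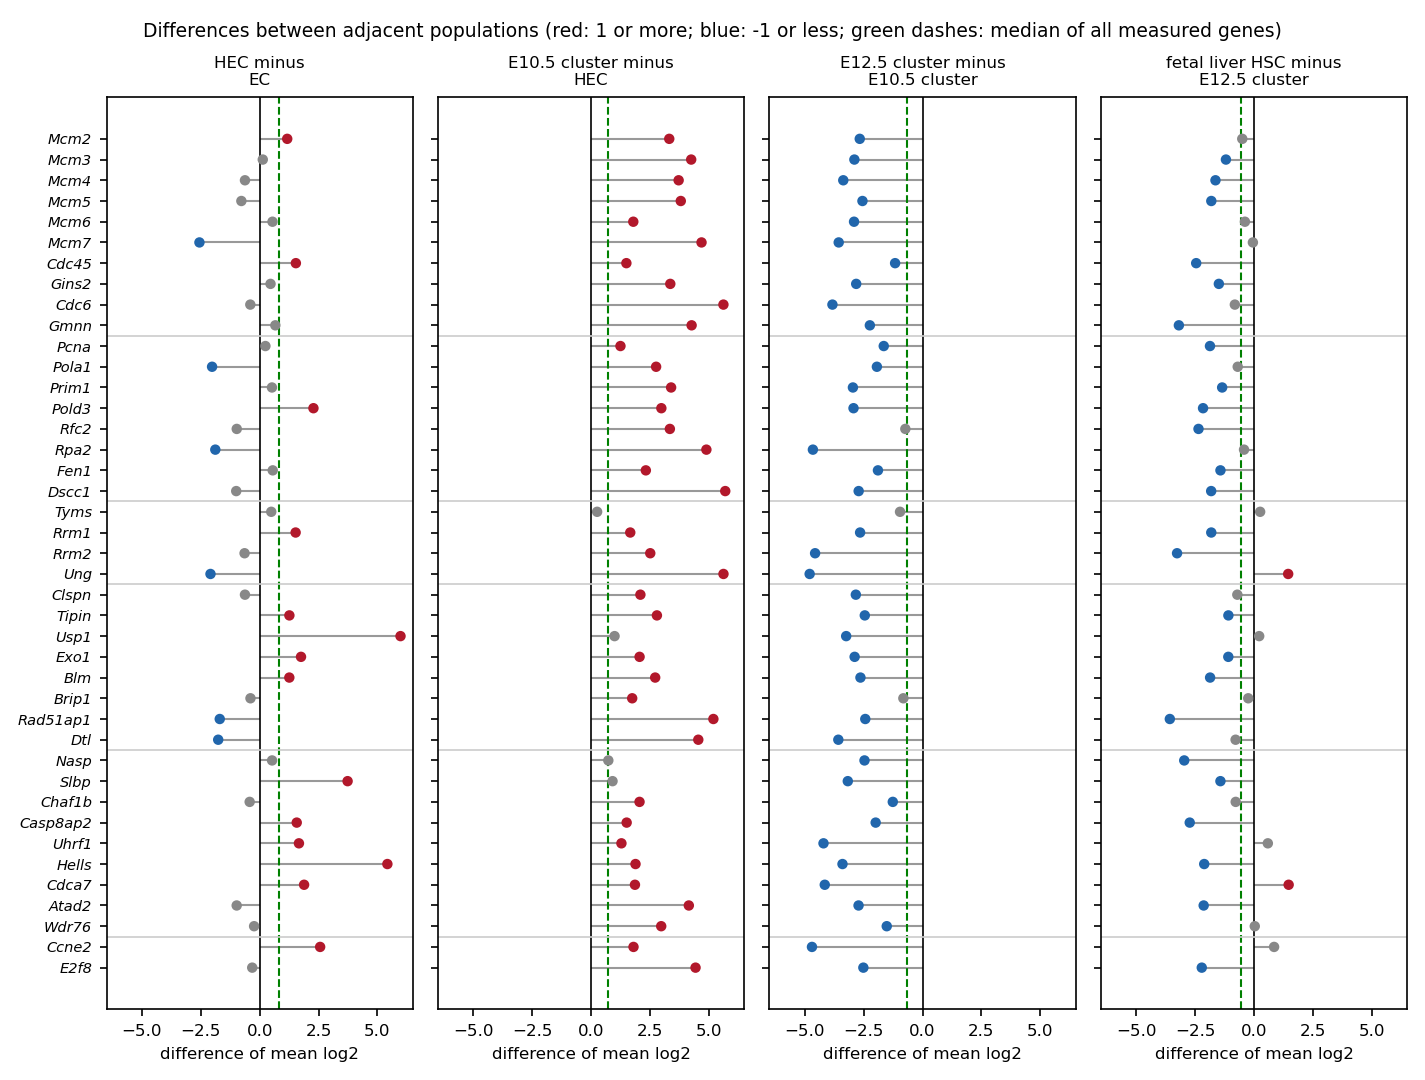
Difference of mean log2 expression of each member between adjacent populations, with the median of all measured genes as a green dashed line. Points lie on both sides of 0 for HEC minus EC, to the right for E10.5 HCC minus HEC and to the left for E12.5 HCC minus E10.5 HCC, where all 41 are below 0.

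Cluster cells of the aorta at E12.5 were lower than those at E10.5 in nearly the whole set. The largest differences were those of Ung (-4.79), Ccne2 (-4.70), Rpa2 (-4.66), Rrm2 (-4.56) and Uhrf1 (-4.21). Of the 41 members, 0 were higher (5.47% of all genes) and 38 were lower (39.9%), with a median of -2.72 against -0.66 for all genes. Rfc2 (-0.73), Brip1 (-0.81) and Tyms (-0.96) did not reach a size of 1. Ranges overlapped for every member, and 0% of all genes had ranges that did not.

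E12.5 HCC also had fewer probe sets above background than E10.5 HCC. E12.5 HCC cells 1, 3, 7 and 11 held 4, 7, 11 and 11 members, and 4137, 5669, 5890 and 6045 probe sets above background, fewer than any E10.5 HCC (8244 at the lowest). Over the 11 E12.5 and 8 E10.5 HCC with 7000 to 9500 probe sets, the median difference was -0.76 (all genes -0.000479), with 3 members higher (19.7% of all genes) and 18 lower (20.1%). Of the 38, 18 remained lower by 1 or more there, and Cdc45 (1.82), Casp8ap2 (1.03), Chaf1b (0.76), E2f8 (0.65), Clspn (0.42), Rrm1 (0.25) and Fen1 (0.09) were on the other side of 0. Without the 3 cells with macrophage markers, 37 were lower (39% of all genes). With the mean over probe sets 31 were lower (29.1% of all genes), with a median of -1.77 against -0.44. With quantile normalization 34 were lower (19%), and Chaf1b (0.47) and Wdr76 (0.31) were above 0.

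Fetal liver HSC at E14.5 were lower than E12.5 HCC in 24 of 41 members, with smaller differences for several MCM subunits. The largest were those of Rad51ap1 (-3.57), Rrm2 (-3.26), Gmnn (-3.19), Nasp (-2.96) and Casp8ap2 (-2.73). Cdca7 (1.47) and Ung (1.45) were higher in HSC, and Mcm2, Mcm6 and Mcm7 differed by -0.50, -0.38 and -0.04. In all 2 members were higher (7.91% of all genes) and 24 lower (36.9%), with a median of -1.35 against -0.53. Of the 8 polymerase, clamp and loader genes 6 were lower, and of the 8 fork and repair genes 4.

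No member's ranges were apart between HSC and E12.5 HCC (0.00935% of all genes). Of the 26 differences 23 held whichever single cell was left out, with Exo1, Mcm3 and Tipin the exceptions. The distance of the members from all genes was not stable here. With quantile normalization 5 members were higher and 12 lower (17.3 and 19.3% of all genes), and the median was -0.34 against 0.01. Over the 17 HSC and 11 E12.5 HCC with both array controls at their shared value, 6 were higher and 16 lower (9.98 and 34.0%), and the median was -0.52 against -0.44. With the mean over probe sets 1 was higher and 17 lower (4.60 and 25.7%), with a median of -0.67 against -0.35. Within the window of 7000 to 9500 probe sets (8 HSC and 11 E12.5 HCC), 5 were higher and 22 lower (13.9 and 37.7%), with a median of -1.26 against -0.51. Without the 6 cells that went against their label, 3 were higher and 23 lower (8.28 and 38.0%).

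Between HSC and E10.5 HCC, 40 of 41 members were lower in HSC (55.5% of all genes) and 0 higher (5.01%), with a median of -4.08 against -1.29 for all genes. Rrm2 differed most (-7.83), then Rad51ap1 (-6.00), Hells (-5.51), Nasp (-5.42) and Gmnn (-5.42). Tyms (-0.69) was the exception. Ranges overlapped for all members (0.0374% of all genes did not). This comparison shares its E10.5 HCC with the previous ones, so its values are not independent of them.

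The median between HSC and E10.5 HCC stayed below 0 under every alternative run but differed in size. It was -1.87 among the 8 cells of each population with 7000 to 9500 probe sets, where 28 members were lower and 1 higher (37.8 and 14.7% of all genes), and -2.55 with quantile normalization, where 1 was higher and 36 lower (20.4 and 25.8%) and Wdr76 (1.04) and Chaf1b (0.66) were above 0. Without the 6 doubted cells 39 were lower (55.6% of all genes). Brip1 was under 1 in size when any of 8 E10.5 HCC was left out, such as cell 25 (-0.82).

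Other genes of the replication machinery, of which 52 of 55 listed were measured, gave these counts. In HEC minus EC 25 were higher and 4 lower (48.1 and 7.69%), close to the 45.9 and 7.36% of all measured genes. Prim2, the large primase subunit, was at 6.10 there and the origin recognition subunit Orc3 at -2.50. In E10.5 HCC minus HEC 42 were higher and 2 lower (43.1 and 15.7% of all genes). The largest differences were those of Orc3 (5.37), Mcm10 (5.13) and the clamp loader subunit Rfc3 (5.13). In E12.5 HCC minus E10.5 HCC, 0 were higher and 48 lower (5.47 and 39.9% of all genes), with the nuclease Dna2 at -4.64. In HSC minus E12.5 HCC, 1 was higher and 29 were lower (7.91 and 36.9% of all genes). The lowest there were Dbf4 (-4.53), the activator of the Cdc7 kinase, and cyclin A2 (Ccna2, -3.64).

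Upstream of the set, the G1 cyclin and RB pathway genes (14 measured) differed in both directions. Cdk6, a G1 kinase, was higher in E10.5 HCC than in HEC by 7.46 and was in 28 of 28 cluster cells and 3 of 7 HEC, while cyclin D1 (Ccnd1) was lower there (-4.12). Ccnd1 and Ccnd2 were higher in HSC than in E12.5 HCC by 2.73 and 2.22, whereas Cdk6 was lower (-3.06). Both D-type cyclins thus had higher means in HSC, where 24 of 41 S-phase members had lower ones. Of the 14, 3 were higher and 4 lower in HSC minus E12.5 HCC (21.4 and 28.6%, against 7.91 and 36.9% of all genes). In E12.5 HCC minus E10.5 HCC, 1 was higher and 10 lower (5.47 and 39.9% of all genes).

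Among 5 measured CDK inhibitors, Cdkn1c (p57) was found in every HEC. It was in 7 of 7 HEC, 4 of 7 EC and 7 of 28 E10.5 HCC, higher in HEC than in EC by 5.46 and lower in E10.5 HCC than in HEC (-7.96). In HSC it was in 11 of 26 cells, against 4 of 16 E12.5 HCC (difference 1.08). Cdkn1a (p21) was in 1 of 26 HSC and 8 of 16 E12.5 HCC (-2.59). Of the 5, 1 was higher and 1 lower in HSC minus E12.5 HCC (7.91 and 36.9% of all genes).

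The S-phase set and the genes of G2 and mitosis (25 measured, such as cyclin B2, survivin (Birc5) and topoisomerase 2 alpha (Top2a)) were counted in the same cells. The number of G2 and mitosis genes above background was 11 at the lowest, 22 at the median and 25 at the highest in E10.5 HCC, 1, 22 and 25 in E12.5 HCC and 1, 3 and 25 in HSC. In HSC minus E12.5 HCC, 24 of the 25 were lower (36.9% of all genes). Their median was -3.83, against -1.35 for the S-phase members and -0.53 for all genes. In E12.5 HCC minus E10.5 HCC, 14 were lower and 3 (Kif11, Nusap1 and Kif23) higher, against 39.9 and 5.47% of all genes. From E10.5 to E12.5 HCC the medians were -2.72 for the S-phase members and -1.33 for the G2 and mitosis genes. The difference between the lists was not tested.

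Single HSC showed what the means combine. At a limit chosen after the values were seen, 18 of 26 HSC held 4 or fewer of the 25 G2 and mitosis genes, against 4 of 16 E12.5 HCC, 0 of 28 E10.5 HCC, 1 of 7 HEC and 0 of 7 EC. Those 18 HSC held 7 to 30 S-phase members, and 7 of them held at least 20. All 6 MCM subunits were above background in 9 of them. The 4 E12.5 HCC held 4 to 11 members, and none held all 6 subunits. These 4 are cells 1, 3, 7 and 11, of which cell 3 carries macrophage markers, and they had the fewest probe sets above background of their population (4137 to 6045, against 4750 to 7972 in the 18 HSC). Without the cells that went against their label, 17 of 24 HSC and 3 of 13 E12.5 HCC were at this limit, with the same ranges of members.

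HSC cell 4, for example, held 30 S-phase members and 3 G2 and mitosis genes, and cell 23 held 29 and 2. HSC cell 1 held 21 members, the median of HSC, and all 25 G2 and mitosis genes. It also had the most probe sets above background of any HSC (8489). HSC cells 6, 10, 16 and 17 held 34 to 38 members with 17 to 20 G2 and mitosis genes. In E12.5 HCC cells 5, 8 and 13, 24 of the 25 G2 and mitosis genes stood beside 26, 24 and 25 members. Members and G2 and mitosis genes above background correlated at r = 0.09 over 28 E10.5 HCC (rho = 0.04), 0.80 over 16 E12.5 HCC (rho = 0.52) and 0.63 over 26 HSC (rho = 0.54), with each pair read from the same array.

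**Figure D5:**
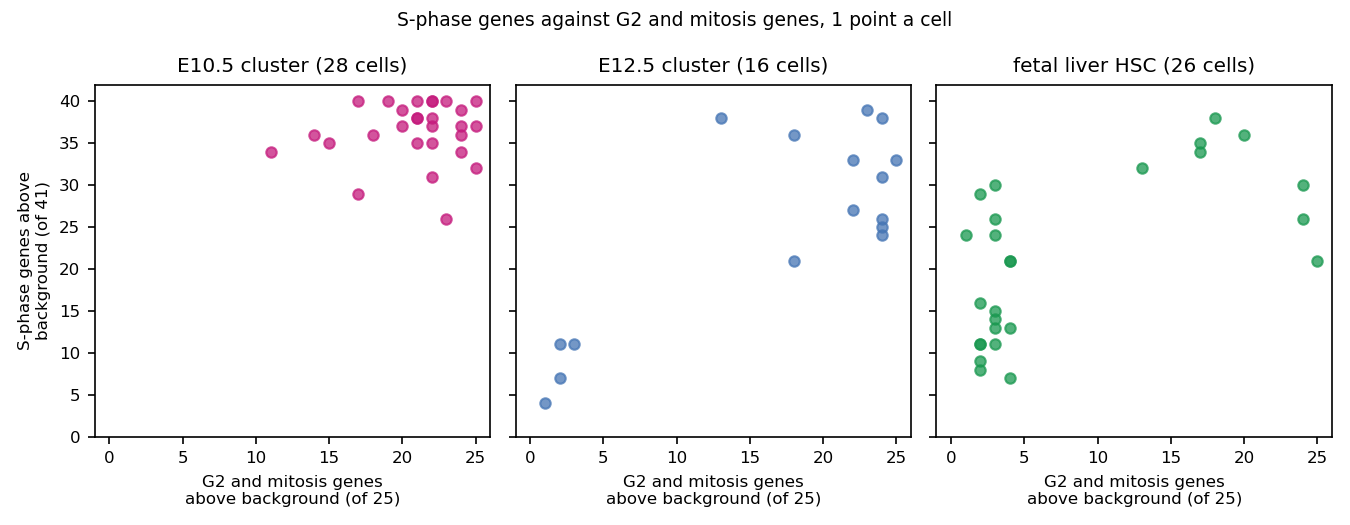
S-phase genes above background (of 41) against G2 and mitosis genes above background (of 25), 1 point a cell, in E10.5 HCC, E12.5 HCC and fetal liver HSC cells. Fetal liver HSC form a column at 1 to 4 G2 and mitosis genes that spans 7 to 30 S-phase genes, while the 4 E12.5 HCC at that level hold 4 to 11.

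Within each blood population the members varied together from cell to cell. The median Pearson correlation over the 820 pairs of members was 0.34 in E10.5 HCC (28 cells), 0.56 in E12.5 HCC (16) and 0.29 in HSC (26), against 0.05, 0.08 and -0.00438 over all pairs of measured genes. Among the 15 pairs of MCM subunits the medians were 0.64, 0.69 and 0.56. The 300 pairs of G2 and mitosis genes had medians of 0.39, 0.73 and 0.64, above those of the members in each population. All genes of a cell share its array and detection level, whose part in these values was not tested. The closest pairs were Pcna and Hells in E10.5 HCC (0.86), Rrm1 and Slbp in E12.5 HCC (0.97) and Rrm2 and Rad51ap1 in HSC (0.94).

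In HSC, Rrm2 and Rad51ap1 were above background in 6 and 7 of 26 cells, so that their correlation rests on those few cells, as do those of Cdc45 with Rrm2 (0.85) and with Rad51ap1 (0.81). Against the mean of the other members, Dtl followed the set most closely in E10.5 HCC (0.81), Fen1 in E12.5 HCC (0.94) and Prim1 in HSC (0.83). Ung (0.11), Slbp (0.21) and Cdca7 (0.25) were among the least coupled in HSC, and Pola1 (0.17) in E10.5 HCC. The other replication genes followed the members at r = 0.90, 0.97 and 0.95 over cells of the 3 populations, counted as genes above background.

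A second reading came from other probe sets of the same genes. For members past a size of 1, the other measured probe sets had the same sign in 140 of 163 cases: 15 of 23 in HEC minus EC, 29 of 35 in E10.5 HCC minus HEC, 35 of 38 in E12.5 HCC minus E10.5 HCC, 24 of 27 in HSC minus E12.5 HCC and 37 of 40 in HSC minus E10.5 HCC. These come from the same arrays and are no replicates. Only the sign was compared, so values near 0 count as well, and the share over all genes was not computed. Dtl, at 4.55 in E10.5 HCC minus HEC and -3.58 in E12.5 HCC minus E10.5 HCC, was at 0.61, -0.51 and -0.10 and at -0.61, -0.12 and -0.37 on its other probe sets. Nasp, at -2.96 in HSC minus E12.5 HCC and -5.42 in HSC minus E10.5 HCC, was at 0.02 and 0.22 and at -0.10 and 0.03 on its other probe sets, so these differences of Nasp and Dtl rest on 1 probe set each. For 4 members (Mcm5, Pold3, Fen1 and Rrm2) the probe set used carries the suffix _x_at, which marks probes that may also match other transcripts.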

How the data were processed

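Single cells were sorted, lysed and amplified to cDNA and biotin-labelled cRNA, per the labels' protocols. The authors deposited log2 expression values. GCRMA and the affy package are named in the submitters' processing notes, and their versions are not given in the sources used here. The table holds 45101 probe sets, of which 34958 have 1 gene symbol in the platform annotation, 932 have several and 9211 are not listed there. Values run from 2.19 to 17.86, and 17.7% of them exceed the threshold of 5. Counts of reads do not exist for arrays, so precision is limited by the number of cells.

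From these values means, SDs and medians over cells, differences of means and counts of cells above the threshold were computed (python 3.11.15, numpy 2.4.6, pandas 2.3.3, scipy 1.17.1, matplotlib 3.10.9). Each gene was read from its brightest probe set. Intervals on shares of cells are exact Clopper-Pearson 95% intervals. With no animal or litter named, no test was made. The calculation was tested on simulated data, drawn gene by gene from the pooled cells of 2 populations, with 200 genes shifted by 2. Of shifted genes, 83 to 92% reached a size of 1 in the right direction. Genes not shifted reached it in either direction in 41.2% of cases for HEC minus EC and 32.0% for E10.5 HCC minus HEC. For E12.5 HCC minus E10.5 HCC it was 20.7%, for HSC minus E12.5 HCC 23.5% and for HSC minus E10.5 HCC 17.0%. The members and lists were chosen with earlier results of these data known. All members could be named. Values over cells were given for Mcm2 to Mcm7 and, per comparison, for the 5 largest differences of at least 1 in each direction, and the 3 largest in each direction were taken from other lists. Alternatives were equal median signal, quantile normalization, the mean of probe sets, medians over cells, a threshold of 6, no filter on dim genes, near-identical arrays counted separately, both array controls at a shared value, and each cell left out. Leaving out the 6 doubted cells and the window of probe sets are described with the results.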

Additional observations from a re-analysis of the deposited data

Results flagged for a closer look

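In 46 sets of 7 cells, 7 held a cell whose gap to its nearest neighbour exceeded 0.568 of the whole range, Dixon's critical value for 7 samples. The sets were 18 members (Mcm2 to Mcm7 and the leading members of HEC minus EC and of E10.5 HCC minus HEC) and 5 per-cell summaries, each in EC and in HEC. Chance flags about 1 in 20 sets of normally distributed values. That rate does not hold here, since single-cell values lie mostly at background or well above it and members were included for their differences in these same cells. EC cell 7 had Ccne2 at 12.03, with the next cell at 2.46. EC cell 3, which carries germ cell markers, had Cdc6 at 13.49 (next 2.68) and Hells at 13.01 (next 3.07). EC cell 5 was the lowest for Mcm6, at 5.07, with the next at 10.67. HEC cell 4 had Cdc6 at 11.58 (next 2.56), HEC cell 1 had Dscc1 at 8.34 (next 2.36) and HEC cell 7 had Ung at 10.59 (next 3.81).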

How the results depend on the processing

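No paired analysis was possible because replicate numbers name single cells and the results come from no test. Over single members, 2046 values under an alternative stayed within the spread over cells and 174 moved. A further 25 changed sign, counted only where the main difference was 1 or more in size. Smaller differences that crossed 0 were counted by their shift alone. Values with 1 cell left out were counted only where they took a member across a size of 1. A value that stayed within the spread can thus still have changed its call. A threshold of 6 and no filter on dim genes leave these differences unchanged. Counting near-identical arrays separately does so where HSC are not compared, and leaving out the doubted cells does so in E10.5 HCC minus HEC. All these unchanged values are among the 2046. With quantile normalization, HEC minus EC had 7 members higher and 17 lower with a median of -0.87 (5, 18 and -0.52 with equal median signal), and Rrm1 (-0.094), Tipin (-0.13) and Uhrf1 (-0.21) changed sign. Chaf1b (0.47) and Wdr76 (0.31) did so in E12.5 HCC minus E10.5 HCC, and Chaf1b (0.66) and Wdr76 (1.04) in HSC minus E10.5 HCC, where the median was -2.55 with 1 higher. HSC minus E12.5 HCC had 5 higher and 12 lower (median -0.34, all genes 0.01). With medians over cells, Mcm7 was 0.87 in HEC minus EC, and Brip1 -0.016 and Uhrf1 -0.11 in E10.5 HCC minus HEC. Medians over cells also gave Brip1 0.036 in HSC minus E10.5 HCC (median over members -5.28). In HSC minus E12.5 HCC they gave 4 members higher (5.85% of all genes). With the mean of probe sets, the medians were -0.02 in HEC minus EC (12 higher, 4 lower), 1.80 in E10.5 HCC minus HEC, -1.77 in E12.5 HCC minus E10.5 HCC, -0.67 in HSC minus E12.5 HCC (1 higher, 17 lower) and -2.60 in HSC minus E10.5 HCC, and E10.5 HCC held 32.6 members on average. In cells with both controls at the shared value, Uhrf1 was -0.28 in E10.5 HCC minus HEC, and Gins2 0.23 and Tipin 0.21 in HSC minus E12.5 HCC, with 6 higher, 16 lower and a median of -0.52 (all genes -0.44). In the window of 7000 to 9500 probe sets, Casp8ap2 was -0.20 in E10.5 HCC minus HEC (1 lower). In E12.5 HCC minus E10.5 HCC the median was -0.76 with 3 higher and 18 lower, and Cdc45 (1.82), Fen1 (0.092), Rrm1 (0.25), Clspn (0.42), Chaf1b (0.76), Casp8ap2 (1.03) and E2f8 (0.65) changed sign. Prim1 (0.15) and Exo1 (1.02) did so in HSC minus E12.5 HCC (5 higher), and Brip1 (1.54) in HSC minus E10.5 HCC (median -1.87, 1 higher). The window held 1 EC, so HEC minus EC was not computed in it. Without the 6 doubted cells 3 members were lower in HEC minus EC (6.28% of all genes). The cause of these shifts was not tested. Leaving out 1 cell gave medians from -0.16 to 0.88 in HEC minus EC (9 to 18 higher, 3 to 13 lower), 2.12 to 3.18 in E10.5 HCC minus HEC (33 to 41 higher), -3.13 to -2.39 in E12.5 HCC minus E10.5 HCC (37 to 40 lower), -1.732 to -1.00005 in HSC minus E12.5 HCC (2 to 3 higher, 21 to 27 lower) and -4.23 to -3.87 in HSC minus E10.5 HCC (39 to 40 lower). Shares of all genes were not computed with 1 cell left out. Mean members above background per cell then ranged from 36.3 to 36.8 in E10.5 HCC, 24.3 to 26.7 in E12.5 HCC, 22.7 to 26.3 in EC, 22.8 to 26.8 in HEC and 20.7 to 21.9 in HSC. A looser E2F spelling (TTTNNCGC) was in 15 members against 13 (48.4% of members with a promoter and 5.93% of all genes).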
